A study of Mus musculus with 8 samples.

Results

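This account covers 9 genes of blood coagulation and of the plasminogen system in regenerating muscle of aged mice. The genes were given as a list of 9, out of 19752 genes with a probe set of their own on the array, and for each gene the single-symbol probe set with the highest mean over the 8 arrays was used. They comprise the clotting factor genes F7, F3, F5, F10 and F13a1, the plasminogen activator genes Plat and Plau, the receptor gene Plaur, and the anticoagulant receptor gene Thbd. The genes were chosen by their rIL-33 minus PBS differences on these same arrays, overall and within each genetic background label, so those differences are described here without a test.

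Whole tibialis anterior muscle of male mice was profiled on microarrays (Affymetrix, Mouse Gene 1.0 ST), which read RNA levels as the brightness of probe sets. The labels give an age of 99 weeks and the design text one of 22 months, and all muscles had been injured by a metal probe chilled in liquid nitrogen, held for 8 s. The rIL-33 group (4 arrays) received 2 µg of recombinant interleukin 33 into the peritoneal cavity a day before injury and again a day after it, and the other arrays carry the treatment label PBS, for phosphate-buffered saline (4 arrays). All muscles were taken at day 8. As genetic background, C57BL/6 is entered for replicates 1 and 2 of either treatment and WT for replicates 3 and 4, and the sources used here do not say how these labels differ. No uninjured or young muscle is among the arrays analysed here, and nothing in the labels says whether the arrays stem from separate mice.

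Median intensity was 222.6 to 232.2 on the 8 arrays, and skeletal muscle markers such as Ckm were bright on all of them. Both WT-labelled PBS arrays stood apart in the summed intensity of neutrophil and of erythrocyte markers. This did not hold for all blood cells: summed T cell markers (866) and macrophage and monocyte markers (7133) were highest on PBS replicate 1. Summed over 6 neutrophil markers, the intensity was 408 to 492 on the rIL-33 arrays, against 349, 361, 1051 and 1685 on PBS replicates 1 to 4. The means of S100a8, Ly6g, Mmp8 and Cxcr2 among them were under the cut-off for dim genes, 6.65 on the log2 scale. For 2 erythrocyte markers the summed intensity was 353 to 368 on the rIL-33 arrays, against 342, 331, 587 and 418 on the PBS arrays. The 2 were not alike, with a C57BL/6 minus WT difference of -0.54 for Slc4a1 and -0.01 for Alas2 (log2). Leaving out just the 2 WT-labelled PBS arrays, an alternative chosen after their values were seen, leaves PBS with the C57BL/6 label alone and rIL-33 with both labels. The difference was then 0.64 for F7, 0.43 for F10, 0.28 for F5, -0.17 for F3 and -0.04 for F13a1 on the log2 scale. It was -0.33 for Plat, -0.31 for Plau, -0.17 for Plaur and -0.23 for Thbd. The signs were those seen over all 8 arrays, given gene by gene in what follows, and all but Plat and F13a1 lay farther from 0.

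Clotting starts when tissue factor, the product of F3, meets factor VII in the blood, and the pair activates factor X. Activated factor X, with factor V as its cofactor, makes thrombin, which turns fibrinogen into fibrin, and factor XIII crosslinks the fibrin strands. Thrombomodulin, encoded by Thbd, binds thrombin on vessel walls and turns it towards activating the anticoagulant protein C. Fibrin is removed by plasmin, which tissue-type (Plat) and urokinase-type (Plau) plasminogen activators release from plasminogen, and the receptor Plaur holds urokinase on the cell surface. In mouse muscle, urokinase and plasminogen are known to be needed for macrophage entry and regeneration after injury.

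The genes of factor VII and factor X lie next to each other on chromosome 8, on the same strand. Their start regions are shown because these are the adjacent members of the list and both stood higher with rIL-33. RefSeq promoter windows (build GRCm38.p6, 250 bases before to 50 after the annotated start) were found for 6 of the 9 genes, with 2 windows for F13a1. Capitals mark matches to the motifs searched, and the F10 window holds none. The F7 window spans chr8:13025784-13026083 (plus strand) and the F10 window chr8:13037058-13037357 (plus strand).
F7: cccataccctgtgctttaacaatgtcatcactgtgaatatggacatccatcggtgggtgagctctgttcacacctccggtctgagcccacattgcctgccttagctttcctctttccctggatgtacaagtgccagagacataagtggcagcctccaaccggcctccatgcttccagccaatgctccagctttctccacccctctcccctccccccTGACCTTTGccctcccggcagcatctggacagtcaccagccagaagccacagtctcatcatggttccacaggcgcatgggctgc
F10: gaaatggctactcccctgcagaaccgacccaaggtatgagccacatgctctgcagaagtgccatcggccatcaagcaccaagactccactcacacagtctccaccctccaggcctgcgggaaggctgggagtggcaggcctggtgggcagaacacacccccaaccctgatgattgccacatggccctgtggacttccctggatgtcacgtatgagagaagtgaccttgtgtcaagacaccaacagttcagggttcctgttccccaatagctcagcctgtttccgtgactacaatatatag

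The motifs were searched on both strands, with letters chosen after the F7 window had been read. The F7 match is TGACCTTTG, a sequence bound by the liver-enriched factor HNF4, which starts at position -34 from the annotated start, and 0.478% of all 32851 windows hold it. The STAT6 motif (TTC and GAA with any 4 bases between them) was in none of the members' windows and in 6.95% of all windows. The AP-1 motif TGANTCA was found in the windows of F3 and Plaur, and in 7.81% of all windows. The GC box GGGCGG was found for F3, F5 and Plaur, against 35.7% of all windows, and the letters TATAAA for F3, on the minus strand at position 44 after the start, against 13.6%. Matches to different motifs did not overlap, and a match describes letters, not binding.

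F7, the gene of coagulation factor VII, showed the largest difference of the list. Its intensity was 223, 199, 147 and 195 in rIL-33 replicates 1 to 4, against 122, 121, 146 and 135 in PBS replicates 1 to 4. All rIL-33 arrays were above all PBS arrays, but rIL-33 replicate 3 cleared PBS replicate 3 only narrowly. On the log2 scale the level was 7.56 ± 0.25 with rIL-33 and 7.03 ± 0.13 with PBS (SD, n = 4 each), a difference of 0.53 (SE of the limma fit 0.12) or 1.45-fold. Within the C57BL/6-labelled arrays the difference was 0.79, and within the WT-labelled arrays 0.28. Leaving out 1 array at a time gave differences between 0.45 and 0.65. The intensity of F7 was above the cut-off for dim genes (100.4) on every array, with the PBS arrays, at 121 to 146, closest to it. With the dim filter at the 50th percentile, F7 counted as dim.

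Factor VII is made mainly by hepatocytes, so markers of these cells were read beside it. Of 5 hepatocyte markers, Alb, Ttr, Apoh and Ahsg were dim and Apoa1 was not. The summed intensity of the 5 was 433 to 506 in rIL-33 muscles and 402 to 590.0 in PBS muscles, so the groups overlapped. Among markers of alternatively activated macrophages, Retnla was at 10.63 ± 0.41 with rIL-33 and 7.89 ± 0.46 with PBS (log2, SD, n = 4 each, limma adjusted p = 0.00568), though no gene passed with the replicate block or with both WT-labelled PBS arrays left out. The other members of that list did not share a difference of this size: Mgl2 differed by 0.37, Ccl24 by 0.12, Arg1 by -0.13 and the dim Chil3 by 0.05, and none passed the threshold in limma. The summed intensity of the 5, at 1850.2 to 2789.6 with rIL-33 and 769.7 to 1004 with PBS, thus does not describe the list as a whole. All 5 general macrophage and monocyte markers measured were lower with rIL-33, at -0.44 (Adgre1), -0.30 (Cd68), -0.24 (Cd14), -0.21 (Csf1r) and -0.05 (C1qa). C1qa was at -0.26 within C57BL/6 and 0.16 within WT, and none of the 5 passed the threshold in limma. The part of any of the markers named here in the F7 difference was not tested. In whole muscle, a change in the number of cells of a type and a change in RNA per cell cannot be told apart.

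F10, the gene of the protease that factor VII and tissue factor activate, lay higher with rIL-33 chiefly in the C57BL/6-labelled arrays. Its intensity was 181, 156, 193 and 171 with rIL-33, against 119.6, 142, 172 and 175 with PBS. PBS replicate 1 was thus closest to the cut-off for dim genes (100.4). With the dim filter at the 50th percentile, F10 counted as dim. The groups overlapped, because both WT-labelled PBS arrays lay within the range of the rIL-33 arrays, and the low values were the C57BL/6-labelled PBS arrays. The difference was 0.22 on the log2 scale (SE 0.13), with 0.37 within the C57BL/6 label and 0.07 within the WT label, and it was 0.11 without PBS replicate 1. F7 and F10 shared this order of the labels, with the larger difference under C57BL/6. The order was not particular to the pair, since F3, Plau and Thbd, which were lower, also had the larger absolute difference under C57BL/6.

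The genes flanking this pair gave the setting on the chromosome. Mcf2l, the nearest protein-coding gene before F7, differed by -0.03 (SE 0.07, limma adjusted p = 0.925). Proz, which lies after F10 and encodes protein Z, a cofactor of an inhibitor of factor X, differed by 0.02 (SE 0.11, limma adjusted p = 0.974). Neither passed the threshold of 0.05. Of all 14814 genes tested only Retnla did, so this does not set the flanking genes apart from F7, F10 or others.

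F5, the cofactor gene of the factor X step, was the member left out of the tests as dim. It was at 68.3, 57.6, 83.6 and 80.8 with rIL-33 and 61.9, 56.5, 72.6 and 67.5 with PBS, all under the dim cut-off. The groups overlapped, and in both of them the WT-labelled arrays were above the C57BL/6-labelled ones. Its log2 difference was 0.16 (0.08 within C57BL/6, 0.23 within WT).

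F3, the gene of tissue factor, which starts the extrinsic pathway, differed little. Its intensity was 369, 373, 338 and 364 in rIL-33 muscles, against 405, 407, 339.6 and 406 in PBS muscles. PBS replicate 3 lay far below the other PBS arrays and next to rIL-33 replicate 3, and it made the groups overlap. The log2 difference was -0.11 (SE 0.08), or -0.17 without PBS replicate 3, with -0.13 within the C57BL/6 label and -0.08 within the WT label.

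F13a1 encodes the catalytic subunit of factor XIII, the enzyme that crosslinks fibrin, and is expressed by platelets and by tissue macrophages. Its intensity was 804, 1114, 1085 and 1164 with rIL-33, against 1203, 929, 1085 and 1482 with PBS. The groups overlapped widely, with rIL-33 replicate 1 lowest and PBS replicate 4 highest. The log2 difference of -0.17 (SE 0.15) was close to its SE, and it was -0.05 without either of those arrays. Within the labels it was -0.16 (C57BL/6) and -0.17 (WT). Resident macrophage markers, summed over 5 genes, were at 2111 to 2538 with rIL-33 and 2261 to 3037 with PBS, and 5 platelet markers at 1253 to 1662 with rIL-33, against 1803, 1388, 2340.2 and 2513 on PBS replicates 1 to 4. Both marker sums overlapped between the groups, and both were highest on the PBS array that was highest in F13a1. Of the platelet markers, Pf4 (-0.60) and Ppbp (-1.09) were lower with rIL-33, Gp9 (-0.08) and Treml1 (-0.07) differed little, and Itga2b (0.10) was higher. Within the C57BL/6 label Pf4 was at -0.28 and Ppbp at -0.19, against -0.92 and -1.99 within the WT label. The part of either marker list in the F13a1 values was not tested.

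**Figure D1:**
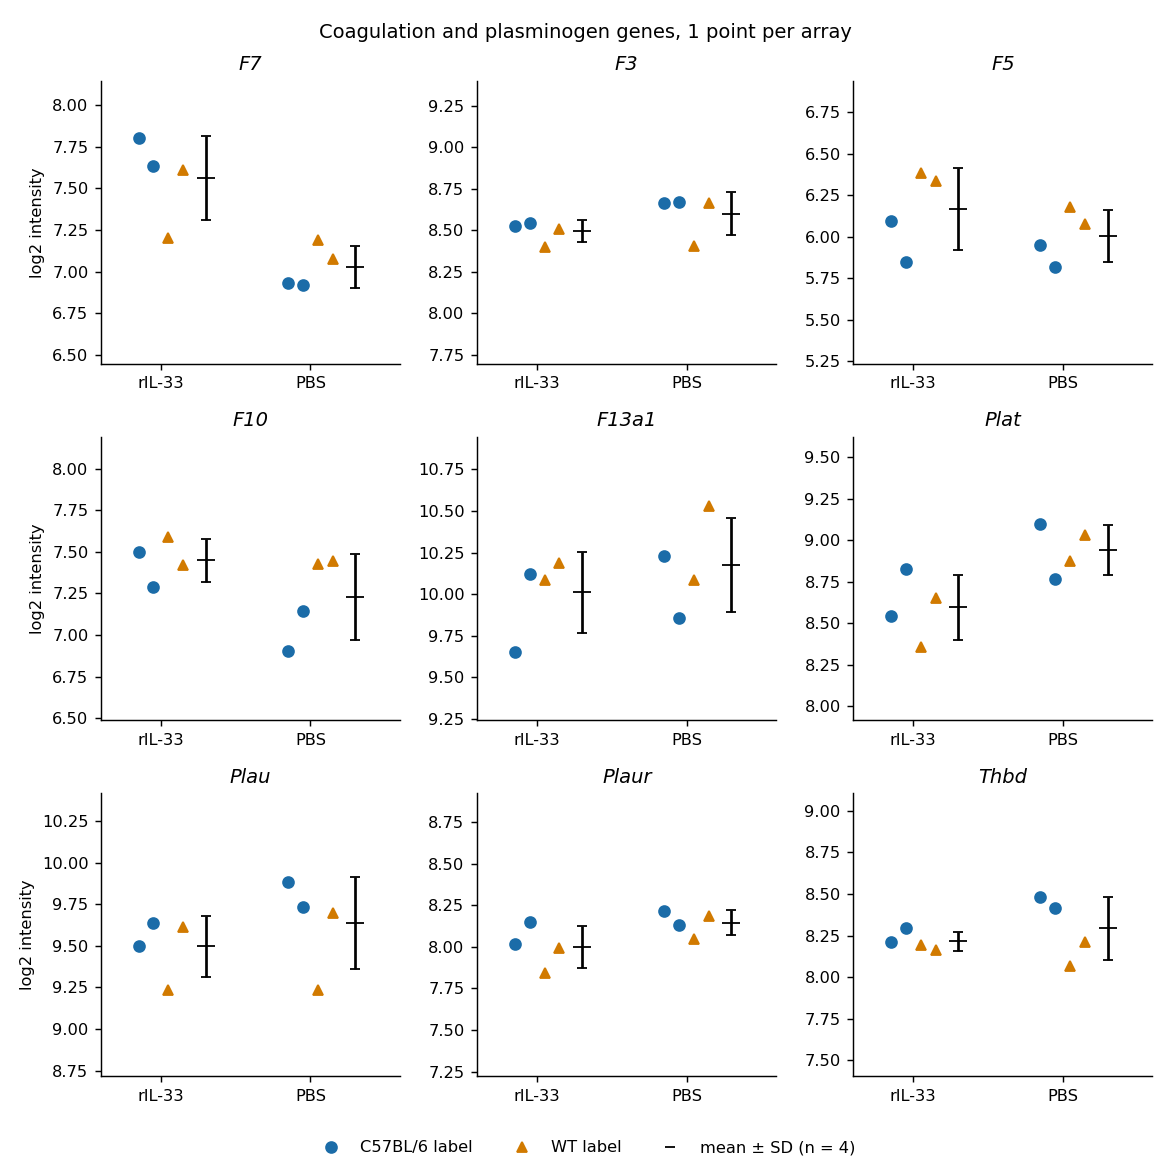
Log2 intensity of the 9 genes (vertical axis, all panels spanning the same range) in rIL-33 and PBS muscles, 1 point per array, circles for the C57BL/6 label and triangles for the WT label, with mean ± SD (n = 4) beside the points. F7 is the panel in which all rIL-33 points lie above all PBS points; in Plat 1 rIL-33 array lies above 1 PBS array.

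Plat, the gene of tissue-type plasminogen activator, which dissolves fibrin and is made by endothelium and other cells, had the largest difference in the opposite direction. Its intensity was 374, 454, 328 and 403 with rIL-33, against 547, 435, 469 and 523 with PBS. A single pair broke the separation of the groups, rIL-33 replicate 2 lying above PBS replicate 2. The log2 level was 8.60 ± 0.20 with rIL-33 and 8.94 ± 0.15 with PBS (SD, n = 4 each), a difference of -0.34 (SE 0.11), with -0.24 within C57BL/6 and -0.44 within WT. Leaving out 1 array at a time gave values from -0.42 to -0.26.

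Plau, which encodes urokinase, showed no separation of the groups. Its intensity was 724, 798, 603 and 782 with rIL-33 and 944, 851, 603 and 830.1 with PBS. Replicate 3 was the lowest array in both groups, at nearly the same value. The log2 difference was -0.14 (SE 0.14), with -0.24 within C57BL/6 and -0.04 within WT, and it ranged from -0.27 without PBS replicate 3 to -0.05 without rIL-33 replicate 3.

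Plaur, the urokinase receptor gene, was at 259, 284, 230.0 and 255 with rIL-33 and at 297, 281, 265 and 292 with PBS. The groups overlapped through rIL-33 replicate 2, the highest of its group. Its log2 difference was -0.14 (SE 0.08), with -0.09 within C57BL/6 and -0.20 within WT.

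Thbd, the thrombomodulin gene, was at 296, 314, 292 and 287 with rIL-33, a narrow band, and at 357, 341, 268 and 297 with PBS. The PBS arrays split by label, the C57BL/6-labelled ones lying above every rIL-33 array and PBS replicate 3 below every one. The log2 difference was -0.08 (SE 0.10), with -0.19 within C57BL/6 and 0.04 within WT, the 1 sign change between the labels among the members. Of all genes tested, 36.9% had opposite signs in the 2 labels.

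**Figure D2:**
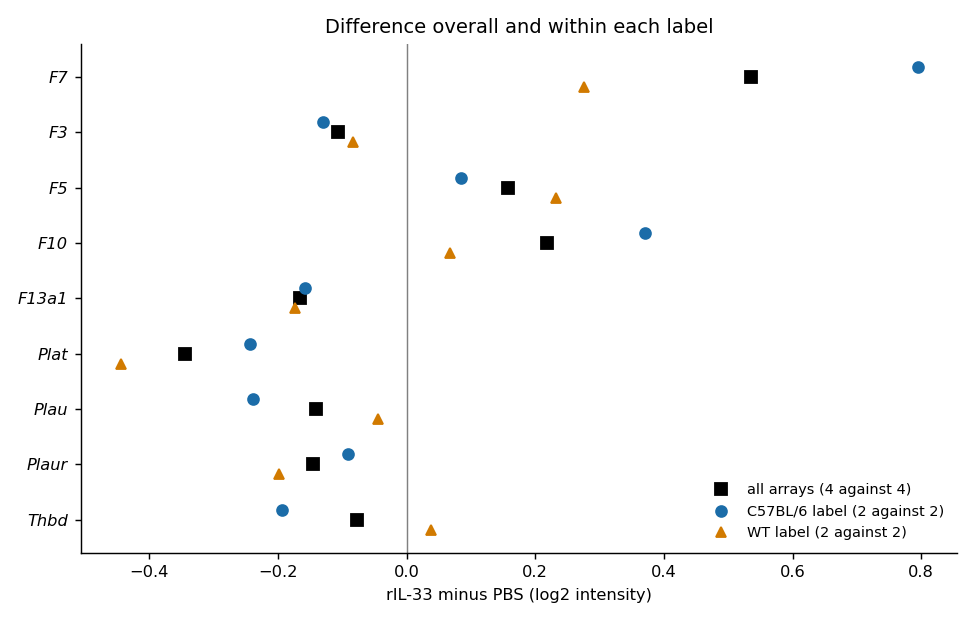
Differences rIL-33 minus PBS (log2 intensity, horizontal axis) of the 9 genes over all arrays (squares) and within the C57BL/6 (circles) and WT (triangles) labels. F7 spans 0.79 to 0.28 between the labels, and Thbd is the gene whose 2 labels fall on opposite sides of 0.

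Over the 8 members that were tested, 2 were higher (F7 and F10) and 6 lower with rIL-33, with a median log2 difference of -0.12, beside -0.01 over all 14814 genes tested. Groups without overlap were seen in 1 of the 8, F7, which was higher, against 4.57% of all genes in either direction and 2.44% higher. These counts come from the differences with which the list was drawn up and serve only as a description.

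Markers of stromal, endothelial and macrophage cells were read beside the lower members. The 5 fibroblast and progenitor markers (Pdgfra, Dpt, Col1a1, Dcn and Pi16) were all lower. Their summed intensities, 13679.7 to 16451 in rIL-33 muscles and 18204 to 20501 in PBS muscles, did not overlap. Taken singly, Dpt and Dcn did not overlap between the groups, while Pdgfra, Col1a1 and Pi16 did. Of all genes tested, 2.13% were lower without overlap. Endothelial markers were lower in 4 of 5, with sums of 5419 to 6466 with rIL-33 and 6363 to 7046 with PBS. Emcn (-0.32) was lower without overlap, Cdh5 (-0.23), Pecam1 (-0.11) and Tek (-0.08) overlapped, and Kdr was at 0.01. Of 5 pericyte and smooth muscle markers, Acta2 (-0.32), Kcnj8 (-0.16) and Rgs5 (-0.15, without overlap) were lower. Abcc9 (0.20) and Myh11 (0.14) were higher, and the sums were 8409 to 10110 with rIL-33 and 10016 to 11080 with PBS. Macrophage and monocyte sums were 4518 to 6150.0 with rIL-33 and 5489 to 7133 with PBS. These sums overlapped. Of the 5 resident macrophage markers, Lyve1 (0.21) and Cd163 (0.27) were higher with rIL-33, while Folr2 (-0.26), Mrc1 (-0.22) and Timd4 (-0.01) were lower. Skeletal muscle markers overlapped between the groups, at 61720.3 to 67698 with rIL-33 and 59945 to 66299 with PBS. None of these markers passed the threshold in limma, and their part in the differences of Plat, Plau, Plaur and Thbd was not tested.

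The genes with the pattern most like F7 over the 8 arrays were Vma21 (Pearson r = 0.95, Spearman rho = 0.93), Slc9a4 (r = 0.95, rho = 0.88) and Zfp566 (r = 0.94, rho = 0.83). They encode an assembly factor of the vacuolar proton pump, a sodium-proton exchanger and a zinc finger protein, and differed by 0.16, 0.28 and 0.19 on the log2 scale. For Plat the closest were Ect2, a guanine nucleotide exchange factor of cell division (r = 0.99, rho = 1), and the cyclin-dependent kinase subunit genes Cks1b (r = 0.99, rho = 1) and Cks2 (r = 0.99, rho = 0.98). Ect2, Cks1b and Cks2 differed by -0.48, -0.42 and -0.63. The order of the 8 arrays in Ect2 and in Cks1b was that of Plat without exception. These genes were taken as the highest of 14814, and the arrays share treatment and label, so no p is given.

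Other genes of both systems, 40 in all, were read beside the members. Of these, 35 were found, 21 were tested and 14 were dim. The others were not analysed here. The dim genes included prothrombin (F2), factor IX (F9) and the fibrinogen chain genes Fga, Fgb and Fgg, products of the liver. With rIL-33, 6 were higher and 15 lower, with a median log2 difference of -0.18, beside -0.01 over all genes tested. Past the threshold in limma were 0 in either direction (adjusted p between 0.489 and 0.976), where 0.00675% of all genes tested passed, which is the 1 gene Retnla. At an unadjusted p under 0.05 in limma were 1 higher and 6 lower, where 9.63% of all genes were, 4.39% higher and 5.24% lower. Groups without overlap were seen in 2, both lower (Kng2 and Procr), where 2.13% of all genes were lower without overlap.

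Vkorc1, which encodes the vitamin K epoxide reductase needed to make factors VII and X functional, had the largest difference of these genes. Its log2 level was 9.59, 9.83, 9.57 and 10.03 in rIL-33 muscles, against 10.28, 9.97, 10.25 and 10.41 in PBS muscles. Only rIL-33 replicate 4 reached into the PBS range, and the difference was -0.47 (SE 0.12, limma adjusted p = 0.489). Kng2, a kininogen gene of the contact pathway, was at 6.73, 6.74, 6.76 and 6.86 with rIL-33, below all PBS arrays at 6.95, 7.04, 7.06 and 7.28. It differed by -0.31 (SE 0.08, limma adjusted p = 0.489), and its low rIL-33 values lay near the dim cut-off of 6.65.

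Among inhibitors, 4 of the 5 tested were lower and the median was -0.29. Tfpi2, an inhibitor of tissue factor and plasmin, differed by -0.33 (SE 0.20, limma adjusted p = 0.604), with 0.03 within C57BL/6 and -0.69 within WT. The difference of the protein C receptor gene Procr was -0.16 (SE 0.07, limma adjusted p = 0.512), with -0.06 within C57BL/6 and -0.26 within WT, and it is named because of its groups without overlap. Without both WT-labelled PBS arrays, Tfpi2 was at 0.02. All 3 thrombin receptor genes tested were lower, F2r, the main one on many cells, by -0.28 (SE 0.17, limma adjusted p = 0.605), or by -0.11 without rIL-33 replicate 3. Of the genes of plasminogen, its binding proteins and its inhibitors, 4 of 6 tested were lower. Anxa2 and S100a10, whose products form a cell-surface complex that binds plasminogen and tissue-type activator, differed by -0.43 (SE 0.18, limma adjusted p = 0.498) and -0.30 (SE 0.11, limma adjusted p = 0.489). Anxa2 was at -0.27 within C57BL/6 and -0.60 within WT, and S100a10 at -0.26 and -0.35. Both were named after their values were seen.

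**Figure D3:**
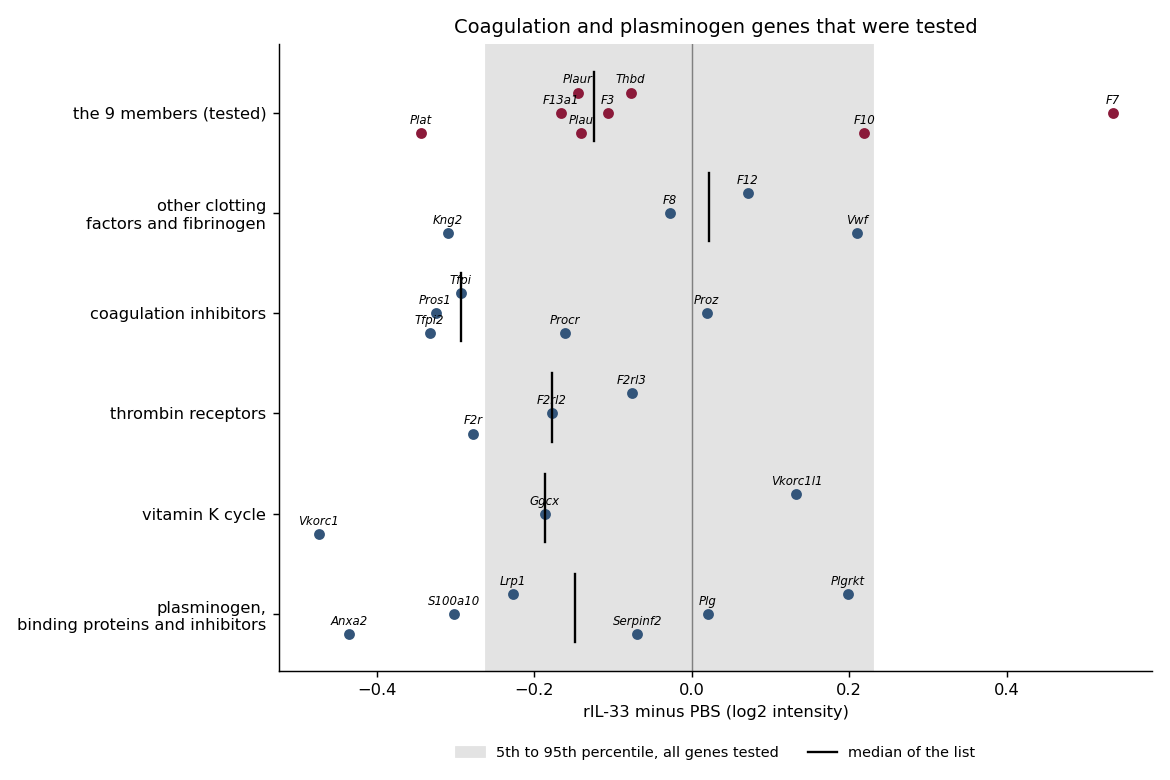
Differences rIL-33 minus PBS (log2 intensity, horizontal axis) of the members and of the other coagulation and plasminogen genes that were tested, 1 point per gene, by role. Black bars are list medians and the grey band runs from the 5th to the 95th percentile of all genes tested (-0.26 to 0.23). F7 lies farthest to the right and Vkorc1 farthest to the left.

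The genetic background labels give a contrast that the choice of members did not use. Each label holds 2 rIL-33 and 2 PBS arrays, and the C57BL/6 minus WT difference was tested in limma with the treatment in the model. Of the 8 members tested, 0 passed the threshold (smallest adjusted p = 0.0898, F10), against 9.4% of all genes tested, 6.2% higher and 3.19% lower with the C57BL/6 label. At an unadjusted p under 0.05 in limma were 2 of the 8, against 32.9% of all genes: Thbd higher (18% of all genes were) and F10 lower (15% were). Labels without overlap were seen in 0 of the 8, against 20.2% of all genes, 11.1% higher and 9.13% lower. With 8 genes, these counts are too few to set apart from the shares of all genes. The share of all genes itself rested on single arrays, with 10 genes higher and 0 lower without rIL-33 replicate 1, against 919 and 473 over all arrays.

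F10 was lower with the C57BL/6 label, at 7.21 ± 0.25 against 7.47 ± 0.08 with the WT label (log2, SD, n = 4 each), a difference of -0.26 (95% interval -0.47 to -0.05, limma adjusted p = 0.0898). Genes of like level, within 0.25 of the log2 mean of F10, had a median label difference of -0.12, and 72.3% of them were lower with the C57BL/6 label. Dim genes as a whole were lower there by a median of -0.14, in 85.1% of them, which bears on F5 as well. F5 was lower by -0.32, with no test because it is dim, beside a median of -0.18 for genes of like level. These values depended on scaling: with quantile or cyclic loess normalization F10 was at -0.18 and -0.17 (limma adjusted p = 0.213 and 0.258), and F5 at -0.16 under both.

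Thbd was higher with the C57BL/6 label, at 8.35 ± 0.12 against 8.16 ± 0.07 (log2, SD, n = 4 each), a difference of 0.19 (95% interval 0.03 to 0.35, limma adjusted p = 0.104). The labels lay farther apart on PBS replicates 1 to 4, at 8.48, 8.41, 8.07 and 8.21. On rIL-33 replicates 1 to 4 they were close together, at 8.21, 8.30, 8.19 and 8.16. The label difference of Plau was 0.24 (interval -0.02 to 0.51) and that of F13a1 -0.26 (interval -0.55 to 0.04). For F7 it was 0.05 (interval -0.22 to 0.33), for F3 0.11 (interval -0.05 to 0.26), for Plat 0.08 (interval -0.16 to 0.32) and for Plaur 0.11 (interval -0.05 to 0.27). The intervals of these 6 genes include 0, but with array weights F13a1 was at -0.42 (limma adjusted p = 0.0226).

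Of the other 21 genes tested, 1 passed in the label contrast, Plgrkt, which encodes a membrane receptor for plasminogen. Its log2 level was 8.50 ± 0.13 with the C57BL/6 label and 7.94 ± 0.37 with the WT label (SD, n = 4 each), a difference of 0.56 (SE 0.15, limma adjusted p = 0.0458). Its level was 8.63, 8.50, 7.45 and 7.91 on PBS replicates 1 to 4, and 8.57, 8.32, 8.33 and 8.06 on rIL-33 replicates 1 to 4. The lowest values were thus those of the WT-labelled PBS arrays, and within the rIL-33 arrays the labels overlapped. The call was lost when any 1 of the 4 PBS arrays or rIL-33 replicate 1 was left out, and under quantile or cyclic loess normalization.

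**Figure D4:**
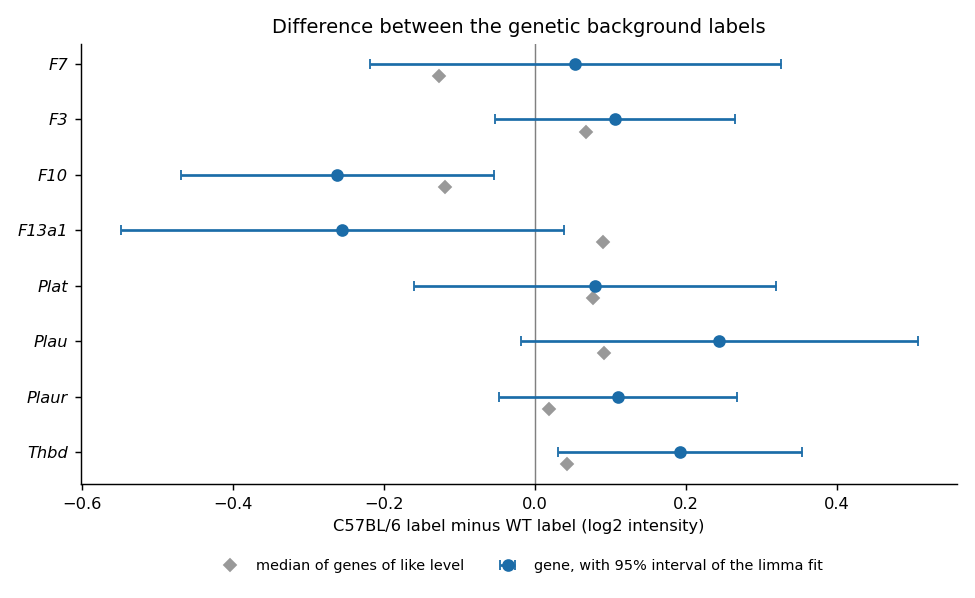
Differences C57BL/6 label minus WT label (log2 intensity, horizontal axis) of the 8 members tested, with 95% intervals of the limma fit (n = 4 arrays per label), and the median of genes of like level (diamonds). The intervals of F10 and Thbd lie to either side of 0 without touching it, and 0 of the 8 passed after adjustment.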

How the data were processed

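The deposited values are probe set intensities on a linear scale, which the authors made with Affymetrix Power Tools and RMA (background correction, normalization between arrays, summary over probes), according to the submitters' processing notes; versions and genome build are not given in the sources used here. Intensities were turned to log2. Of 24922 probe sets, 21425 had 1 gene symbol in the platform annotation, 1399 several and 2098 none, and only the first were used. The 4938 of 19752 genes under the 25th percentile of mean log2 (6.65) were left out as dim. Groups were compared with lmFit and eBayes in limma 3.58.1 (R 4.3.3), Benjamini-Hochberg adjusted over 14814 genes, threshold 0.05; the script was tested on simulated data. Arrays have no read depth, so precision is limited by their number. The p-values reflect only spread between these samples, which may be technical. Members and lists were chosen with earlier results of these data known. Named pathway genes are, per role, those past the threshold, or else the 1 of largest treatment difference, and genes named otherwise are marked. Sequences are from RefSeq. Alternatives tried were 2 other normalizations, other dim filters, weights per array, a trended robust eBayes, averaging each gene's probe sets, replicate number or label as a block, each label alone, each array left out and, chosen after seeing the data, both WT-labelled PBS arrays left out. Plots used Python 3.11.15 and matplotlib 3.10.9.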

Additional observations from a re-analysis of the deposited data

Results flagged for a closer look

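F3, the tissue factor gene, had 1 PBS array far from the rest of its group. PBS replicate 3 was at 8.41 on the log2 scale, while the other 3 PBS arrays lay between 8.66 and 8.67. It was the 1 such case in 28 groups of 4 arrays looked at (the members and the named pathway genes in each treatment group), and chance gives about 1 in 20.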

How the results depend on the processing

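The treatment differences of the members kept their sign under every alternative run, except Thbd, which was 0.04 in the WT-labelled arrays alone. Genes past the threshold for the treatment were 1 higher and 0 lower, against 0 higher with the replicate block and with both WT-labelled PBS arrays left out (chosen after seeing the data), 2 higher in the C57BL/6-labelled arrays alone, and 3 higher and 1 lower in the WT-labelled arrays alone. Leaving out 1 array gave 1 to 2 higher and 0 lower, and 0 other pathway genes passed under any alternative. The 1427 genes at an unadjusted p under 0.05 became 2327 with the replicate block, 2244 with the label as a block, 804 with array weights, 792 in the C57BL/6-labelled arrays alone, and 639 (without rIL-33 replicate 1) to 1890 (without PBS replicate 2) when 1 array was left out. The 677 genes without overlap became 4892 and 6747 in the C57BL/6-labelled and WT-labelled arrays alone, 2653 with both WT-labelled PBS arrays left out and 789 to 1766 without 1 array, by construction, since fewer arrays overlap less often.

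The label contrast depended more on the processing. Its 919 higher and 473 lower genes became 306 and 109 with quantile normalization, 351 and 120 with cyclic loess, 2068 and 1364 with array weights, and 91 lower with the dim filter at the 50th percentile. Leaving out 1 array gave 10 to 1596 higher and 0 to 914 lower, the fewest higher without rIL-33 replicate 1 and the most in both directions without rIL-33 replicate 2. Members past the label threshold were 0, but 1 without a dim filter (F5, adjusted p = 0.0440 in limma) and 1 with array weights (F13a1, -0.42, adjusted p = 0.0226 in limma), and 0 without 1 array. The 1 other pathway gene became 0 with quantile normalization and with cyclic loess, 2 with no dim filter, 4 with array weights, and 0 to 2 without 1 array. Signs turned for the label difference of Plat with array weights (-0.0411) and of F7 without rIL-33 replicate 1 or 3 (range without 1 array -0.0792 to 0.128), and for the treatment difference of Tfpi2 (0.0266 and 0.0228) and Plgrkt (-0.122 and -0.244) in the C57BL/6-labelled arrays alone and with both WT-labelled PBS arrays left out, and of Plgrkt without PBS replicate 3 (range without 1 array -0.0251 to 0.366). The cause was not tested. Same-numbered replicates did not all deviate together (correlations of 0.44, -0.19, 0.43 and 0.54), so the numbers were not taken as pairs. Dim genes are limited by signal close to background.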
